A study of Drosophila melanogaster with 2 samples.

Results

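This account concerns 7 Drosophila melanogaster genes that activate fatty acids or bring them into cells: pdgy, Acsl, bgm, hll, Fatp1, Fatp2 and Fatp3. They were taken from a fixed list of names, and a region belonged to a gene when its summit, the position of highest enrichment, lay in the gene body or within 2 kb of it. By that rule 20 of the 5817 optimal peaks belonged to the 7 genes, out of 13981 protein-coding genes in the annotation. The larvae came from 1 transgenic strain, Hnf4-GFP, in which Hnf4 carries GFP at its C terminus; males and females were pooled at the wandering stage, and their age is unknown per the labels. Hnf4 was mapped by chromatin immunoprecipitation and sequencing in 2 biological replicates of that 1 group. The labels describe an antibody against GFP, but their antibody field gives Hnf4. There is no second condition and no untagged strain among the samples, so every comparison here is between replicates, between genes or between regions, and nothing was tested with a p-value.

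A fatty acid must be joined to coenzyme A before a cell can burn it, store it or build it into membranes, and acyl-CoA synthetases make that joint with energy from ATP. Fatty acid transport proteins (Fatp) draw fatty acids into cells and are themselves related to these synthetases. Hnf4 is a nuclear receptor; in fly larvae it is known for promoting the breakdown of stored lipid when food is short. Whole larvae mix many tissues, so binding in a few cells and weak binding in many cells cannot be told apart.

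pdgy had 8 optimal peaks, the strongest with a signal value of 724, where the signal value is the authors' measure of enrichment for a region. Acsl had 6 weaker peaks, bgm and Fatp1 had 2 each, Fatp2 and Fatp3 had 1 each, and hll had none. So 6 of the 7 genes had an optimal peak, against 33.0% of all protein-coding genes.

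The sequences at 6 regions of pdgy, bgm and hll are shown because they contrast regions with and without the motif of Hnf4 and its relatives, a pair of short repeats in the same direction with 1 base between them (DR1). They run 5′ to 3′ on the plus strand of Release 6 (dm6), 100 bases to either side of the summit except where an annotated UTR was left out. Capitals mark DR1; the regions with no capitals had none. They also mark, at the third pdgy region, 2 copies of GAGAGAG, the GAGA factor motif, read on the minus strand. The GAGA match near the next pdgy summit lay in the part left out.
The strongest pdgy peak, chrX:14953108-14953308: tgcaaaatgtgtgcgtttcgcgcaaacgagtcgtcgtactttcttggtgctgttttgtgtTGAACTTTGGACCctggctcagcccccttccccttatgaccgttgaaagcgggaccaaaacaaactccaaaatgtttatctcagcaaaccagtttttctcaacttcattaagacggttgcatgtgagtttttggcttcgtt
The next pdgy peak by signal value, chrX:14950867-14951017: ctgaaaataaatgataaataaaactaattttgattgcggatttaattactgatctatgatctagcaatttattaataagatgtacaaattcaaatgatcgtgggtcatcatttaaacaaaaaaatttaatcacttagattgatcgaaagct
The third pdgy peak by signal value, chrX:14947493-14947693: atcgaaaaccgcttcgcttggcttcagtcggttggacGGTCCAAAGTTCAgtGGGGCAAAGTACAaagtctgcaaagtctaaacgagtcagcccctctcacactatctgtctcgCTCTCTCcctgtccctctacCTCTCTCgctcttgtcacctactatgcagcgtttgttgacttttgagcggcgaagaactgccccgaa
The strongest bgm peak, chr2L:14020840-14021040: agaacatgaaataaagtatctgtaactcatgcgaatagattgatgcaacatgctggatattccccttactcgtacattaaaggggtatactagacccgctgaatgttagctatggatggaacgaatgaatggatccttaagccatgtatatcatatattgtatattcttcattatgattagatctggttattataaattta
A weaker bgm region in an intron, outside the optimal list, chr2L:14015100-14015300: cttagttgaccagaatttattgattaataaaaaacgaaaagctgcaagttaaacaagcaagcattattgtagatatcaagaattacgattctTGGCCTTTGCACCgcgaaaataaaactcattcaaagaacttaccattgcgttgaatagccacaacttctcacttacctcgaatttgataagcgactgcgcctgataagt
The stronger hll region, outside the optimal list, chr2L:14026070-14026270: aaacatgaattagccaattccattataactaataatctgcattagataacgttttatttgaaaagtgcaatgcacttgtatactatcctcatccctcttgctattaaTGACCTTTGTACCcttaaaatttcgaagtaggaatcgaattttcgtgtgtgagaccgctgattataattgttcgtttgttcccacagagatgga

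Read in the direction of the repeat, with 6 flanking bases on each side, the DR1 matches of these regions compare as follows.
pdgy, peak of 724, minus strand: agccagGGTCCAAAGTTCAacacaa
pdgy, peak of 414, plus strand, first copy: ttggacGGTCCAAAGTTCAgtgggg
pdgy, peak of 414, plus strand, next copy: ttcagtGGGGCAAAGTACAaagtct
bgm, intron region, minus strand: tttcgcGGTGCAAAGGCCAagaatc
hll, upstream region, minus strand: tttaagGGTACAAAGGTCAttaata
Both pdgy peaks carried the identical word GGTCCAAAGTTCA, which was found within 100 bp of 4 optimal summits in the whole list and at 10 places on the main chromosome arms. The bgm and hll regions with DR1, and the pdgy peak of 421, were added for display after their values were seen. For Fatp1, most of the window around the strongest summit is annotated as UTR in some transcript, although the summit is coding in another, and no sequence is printed.

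pdgy (FBgn0027601, chromosome X, 14933670 to 14953532, minus strand) encodes an acyl-CoA synthetase known in Drosophila for being held down by insulin signalling. Its strongest peak had a signal value of 488 in replicate 1 and 245 in replicate 2, and it ranked 73 among the 5817 optimal peaks. Both replicates placed the summit on the same base, in an intron 324 bp downstream of the first transcription start site (TSS). The next peak, at 421 pooled, had 304 in replicate 1 and 123 in replicate 2, with its summit 168 bp upstream of the last of the 4 annotated TSSs. The third, at 414 pooled, had 279 in replicate 1 and 139 in replicate 2 and lay in an intron 3156 bp downstream of that TSS. These were the 3 highest of pdgy in each replicate, well above its other 5 peaks.

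The other 5 pdgy peaks had pooled signal values of 120, 117, 106, 93.1 and 70.8. The first 3 of these were close to the median of 114 for all optimal peaks, and the last ranked 5373 of 5817. They had 56.0 to 88.2 in replicate 1 and 17.4 to 56.2 in replicate 2. One of them, at 117, shared its interval with the peak of 421 and differed from it only in summit, so the 8 entries cover 7 separate intervals. Another, at 70.8, had 63.6 in replicate 1 and 17.4 in replicate 2, and it was among the 5817 strongest regions of replicate 1 but not of replicate 2. The farthest, at 106, lay 17031 bp from the 5′ end of the gene in an intron. Its signal values were close at 56.0 in replicate 1 and 54.1 in replicate 2, but it ranked 4393 in replicate 1 and 2517 in replicate 2. The TSS nearest to it was that of Flo2, 6185 bp away, against 14248 bp for the nearest pdgy TSS. Of the 8 summits, 5 lay within 1000 bp of a pdgy TSS. Over all optimal peaks, 53.8% lay within 1000 bp of a TSS of any protein-coding gene. The 2 pdgy summits nearest the 5′ end, including the peak of 724, also lay within 2 kb of the neighbouring gene CG9030.

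**Figure D1:**
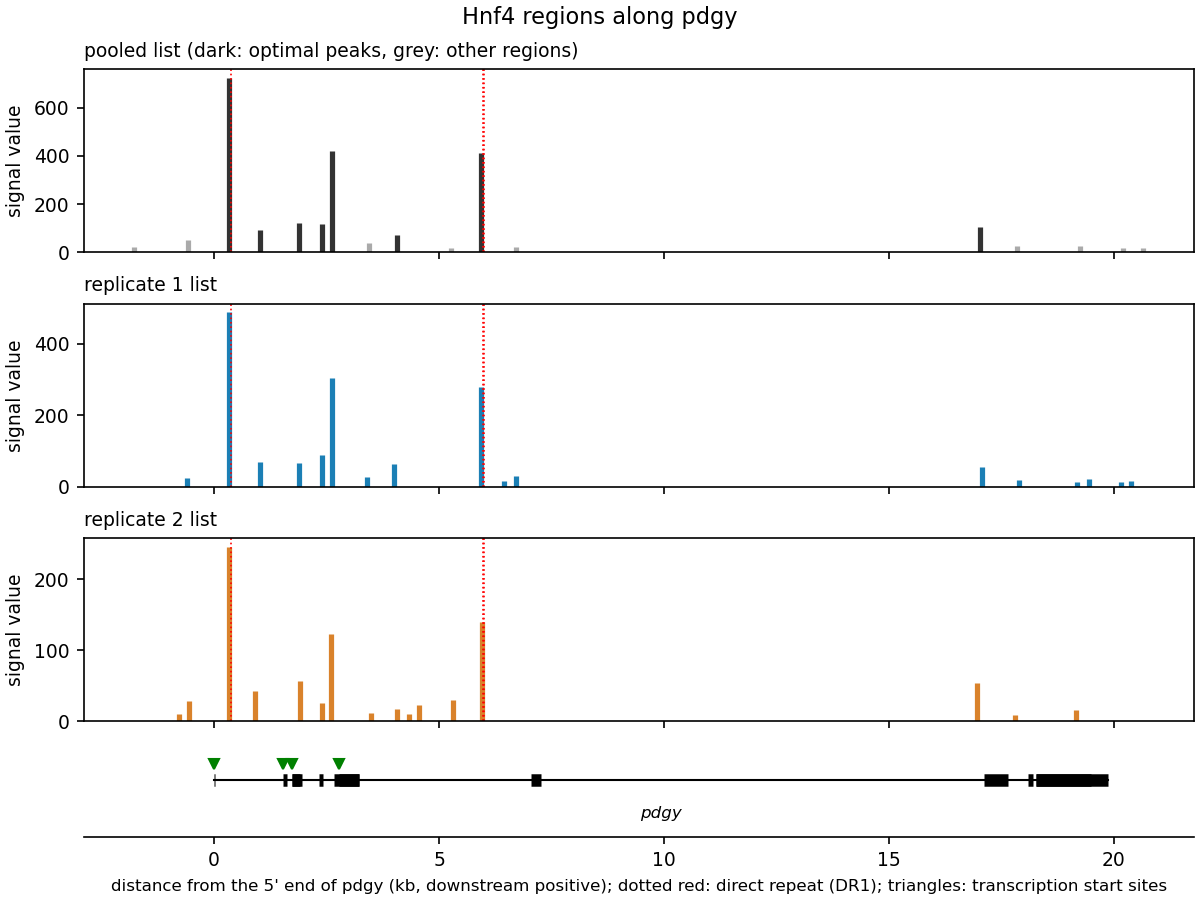
Signal value of every listed region (vertical bars, at the summit) along pdgy and 2 kb on either side, in the pooled list and in each replicate, against distance from the 5′ end of the gene in kb, with a vertical scale for each list. The 3 tallest bars, at 724, 421 and 414 in the pooled list, stand at the same places in both replicates, and DR1 (dotted lines) lies at 2 of them.

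Of all protein-coding genes, 77, or 0.551%, had at least 8 optimal peaks in such a window, and 3.25% of the 4617 genes with a peak had one as strong as its strongest. Long genes hold more peaks: among the 1985 genes over 10 kb, 3.83% had at least 8. Measured per kb of window, pdgy had 0.335 peaks, and 5.35% of genes had as many per kb.

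Acsl (FBgn0263120, chromosome 2R, 8665813 to 8683022, plus strand), which encodes a long-chain acyl-CoA synthetase, had 6 optimal peaks of moderate strength. The strongest pair lay in introns. One, at 151 pooled, had 84.2 in replicate 1 and 73.5 in replicate 2, with its summit 1387 bp downstream of the nearest of 7 TSSs. The other, at 147, had 78.7 in replicate 1 and 69.6 in replicate 2, with its summit 580 bp downstream of another TSS. Each of these peaks differed little in signal value between the replicates. By rank both stood higher in replicate 2, at 1590 and 1741, than in replicate 1, at 2369 and 2634.

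Moving toward the 5′ end of Acsl, an intron peak at 131 had 82.6 in replicate 1 and 45.3 in replicate 2. The peak at 111, 990 bp downstream of a TSS, had 55.1 in replicate 1 and 55.2 in replicate 2. The remaining pair ranked 5446 and 5487 of 5817 and were higher in replicate 1. Both were outside the 5817 strongest regions of replicate 2. The one at 70.2, in the 5′ UTR 33 bp from a TSS, had 65.8 in replicate 1 and 23.9 in replicate 2, where the summit lay 228 bp away, nearest to a separate pooled region of 50.3. The one at 69.9, 526 bp beyond the 3′ end, had 55.1 in replicate 1 and 19.9 in replicate 2. The TSS nearest to it was that of CG30355, 3595 bp away, against 7255 bp for the nearest Acsl TSS. The first 2 peaks from the 5′ end also lay within 2 kb of ptc, which encodes the Hedgehog receptor, so they cannot be given to Acsl alone. At least 6 optimal peaks were found at 1.2% of all genes and at 7.76% of genes over 10 kb.

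bgm and hll encode related acyl-CoA synthetases that act on very long chains, and they neighbour each other on chromosome 2L with 7672 bp between them. bgm (FBgn0027348, 14013004 to 14019328, plus strand) had an optimal peak on each side of its body and none inside. The upstream one, 1216 bp before the first TSS, had 75.8 pooled, 45.4 in replicate 1 and 22.3 in replicate 2, and it was outside the 5817 strongest regions of either replicate. The downstream one had 127 pooled, 82.8 in replicate 1 and 46.6 in replicate 2. Its summit lay 1612 bp past the 3′ end of bgm but 732 bp upstream of NimC3, a gene of the Nimrod family that lies between them, so it was nearer to that promoter.

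hll (FBgn0286723, 14027001 to 14029368, plus strand) had 2 pooled regions and no optimal peak. The stronger had 54.0 pooled, 31.8 in replicate 1 and 23.4 in replicate 2, below the weakest optimal peak at 66.6, with its summit 831 bp upstream of the TSS. A DR1 lay 13 bp from that summit, and the DR1 in the bgm intron lay 2 bp from the summit of a region of signal value 25.6. A strong optimal peak stood just beyond the 2 kb limit: at 14023941 to 14024234 it had 463 pooled, 325 in replicate 1 and 138 in replicate 2. Its summit was 2923 bp upstream of hll, whose TSS was the nearest of any protein-coding gene, and it ranked 227. A weaker one between it and NimC3 had 130 pooled, 47.6 in replicate 1 and 75.6 in replicate 2.

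**Figure D2:**
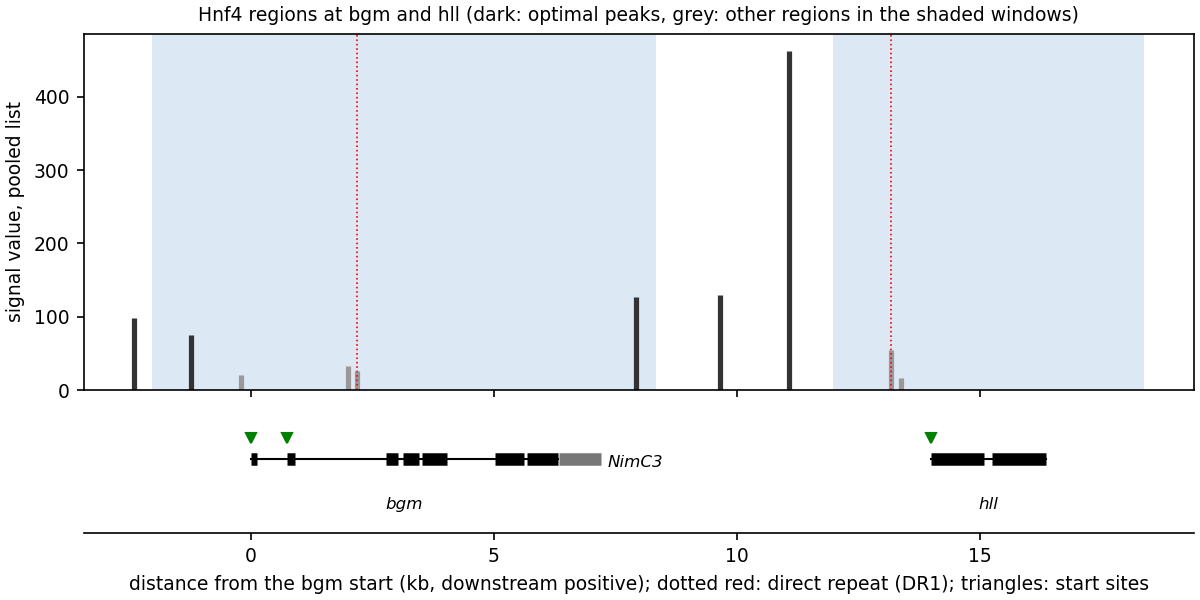
Signal value of pooled regions (vertical bars, at the summit) at bgm and hll against distance from the bgm start in kb; outside the shading only optimal peaks are drawn. Shading shows each gene with 2 kb on either side; the tallest bar, at 463, lies between the shaded windows, and DR1 (dotted lines) lies at weak regions of 25.6 and 54.0.

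The 3 Fatp genes, which encode fatty acid transport proteins, had weak to moderate peaks near their starts. Fatp1 (FBgn0267828, 2L, 10510672 to 10517218, minus strand), known in Drosophila for a role in lipid droplet formation in the retina, had 2 overlapping peaks with summits in coding exons near its 5′ end. The stronger had 132 pooled and 95.1 in replicate 1, with its summit 31 bp downstream of the inner TSS, and the other had 92.2 pooled and 51.9 in replicate 1. Replicate 2 listed 1 region of 71.0 across both, so it does not separate them. Both summits also lay within 2 kb of the neighbouring gene Lrr47.

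Fatp2 (FBgn0265187, 2R, 23055474 to 23061549, plus strand) had a single pooled region, and it was an optimal peak. It had 115 pooled, 68.0 in replicate 1 and 41.8 in replicate 2, with its summit 571 bp upstream of the gene. Fatp3 (FBgn0034999, 2R, 24294097 to 24298111, plus strand) had 1 optimal peak of 70.6, with 47.0 in replicate 1 and 27.4 in replicate 2, 139 bp upstream of its inner TSS. This peak ranked 6004 in replicate 2, outside the 5817 strongest regions of that replicate. Another Fatp3 region, 26 bp upstream of the first TSS, had 66.5 and ranked 5826, just past the 5817 entries of the optimal list. The Fatp3 window thus held 2 regions of almost equal value on either side of the limit.

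**Figure D3:**
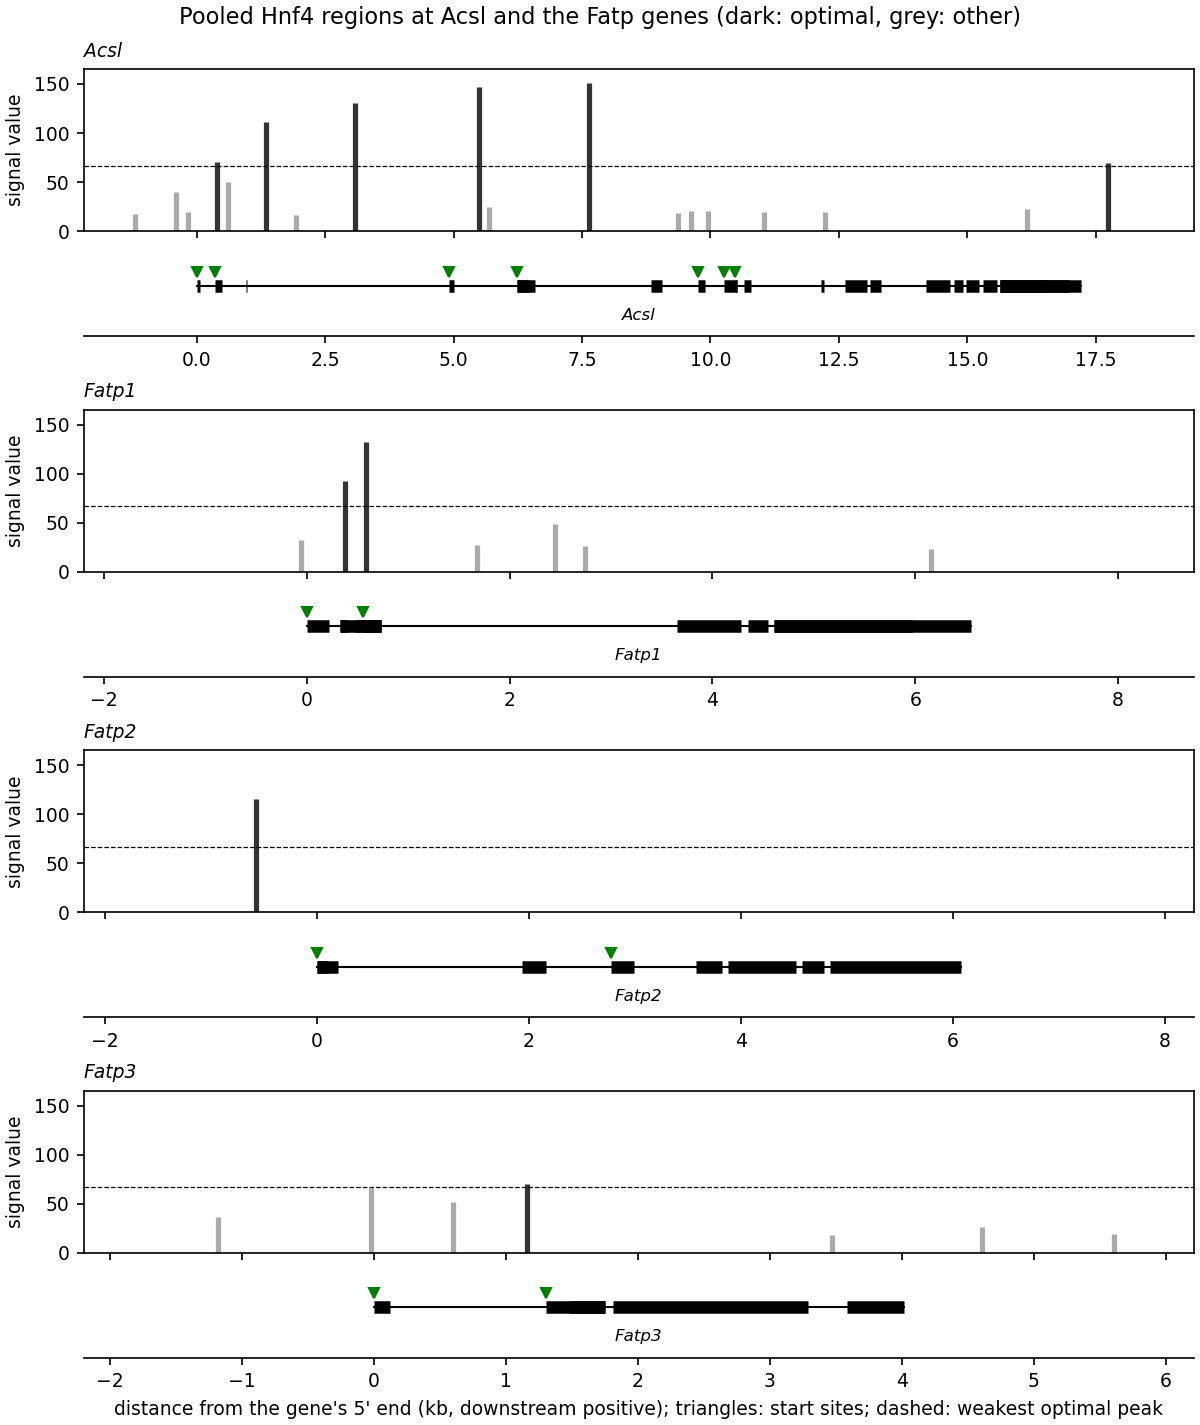
Signal value of pooled regions (vertical bars, at the summit) at Acsl, Fatp1, Fatp2 and Fatp3 against distance from each gene's 5′ end in kb; dark bars are optimal peaks and the dashed line is the weakest optimal peak, at 66.6. The optimal peaks of Acsl run up to 151, and a grey bar of 66.5 at the Fatp3 start stops just below the line.

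Ordered by the strongest peak, the genes ran from pdgy at 724 through Acsl at 151, Fatp1 at 132, bgm at 127 and Fatp2 at 115 to Fatp3 at 70.6. In the replicates this order held for every gene but Acsl and Fatp1. The strongest pdgy peak was above every peak of the other genes in each replicate, and the Fatp3 peak was below the strongest peaks of the other 5. bgm, with 82.8 in replicate 1 and 46.6 in replicate 2, was above Fatp2, with 68.0 and 41.8, and below Acsl and Fatp1. Acsl and Fatp1 changed places, with 84.2 against 95.1 in replicate 1 and 73.5 against 71.0 in replicate 2. Over the 6 genes with a peak, the strongest peak had a median of 130, against 161 over the 4617 genes with a peak, and 1 of the 6, pdgy, was above that.

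**Figure D4:**
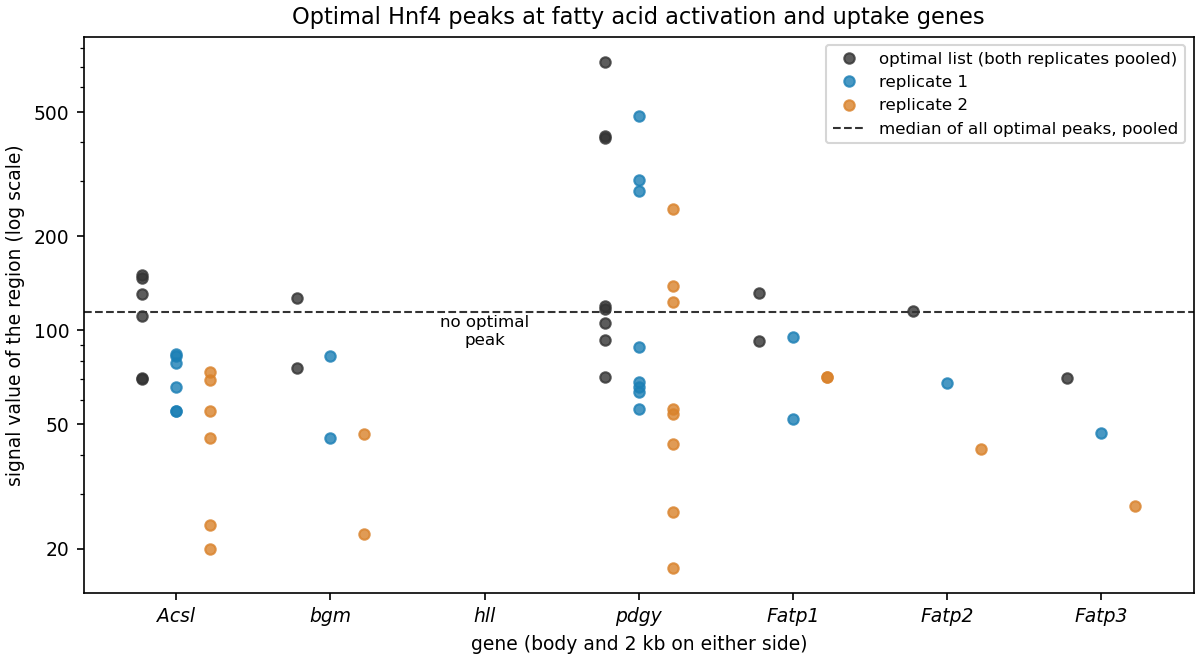
Signal value (log axis) of the optimal peaks at each gene, with 1 point a peak: pooled, replicate 1 and replicate 2. The 3 highest pdgy points, at 724, 421 and 414 pooled, stand apart from the pooled points of the other genes, of which the highest is 151; the dashed line is the median of all optimal peaks, 114.

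The 20 peaks were typical of the list in strength. Their median signal value was 116, against 114 for all 5817 optimal peaks, and 11 of 20 lay above 114. A total of 15, or 75%, overlapped the 5817 strongest regions of both replicates, against 71.0% of all optimal peaks. All 20 overlapped some region in each replicate, as did nearly the whole list: 5789 of 5817 in replicate 1 and 5677 in replicate 2. Within the 15, the pdgy peak of 117 counts through the interval it shares, as its own nearest summit in replicate 2 ranked 6375. Both Fatp1 peaks are also among the 15, and they count through the same single region of replicate 2.

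Replicate 1 gave the higher signal value at 18 of the 20 peaks, as it did over most of the list. The Acsl peak with nearly equal values, 55.1 and 55.2, stood at percentile 15 of the replicate 1 to replicate 2 ratio over all optimal peaks. The matched summit in replicate 2 lay over 100 bp from the pooled one at 3 of the 20. The distance was 228 bp at the Acsl peak of 70.2, 141 bp at the Fatp1 peak of 132 and 124 bp at the pdgy peak of 93.1. How often this happens over all optimal peaks is not given here, so it is not read as a trait of these genes. The log2 ratio of replicate 1 to replicate 2 had a median of 0.80 at the 20 peaks, with a standard deviation of 0.62. The values were 0.58 and 0.70 over 5651 optimal peaks with a value in each. The ratio lay between the 5th and 95th percentiles of all peaks, from -0.38 to 1.85, at 18 of the 20. Outside that range were the pdgy peak of 70.8, at 1.87, and the weaker Fatp1 peak, at -0.45. Both Fatp1 peaks were matched to 1 region of replicate 2.

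**Figure D5:**
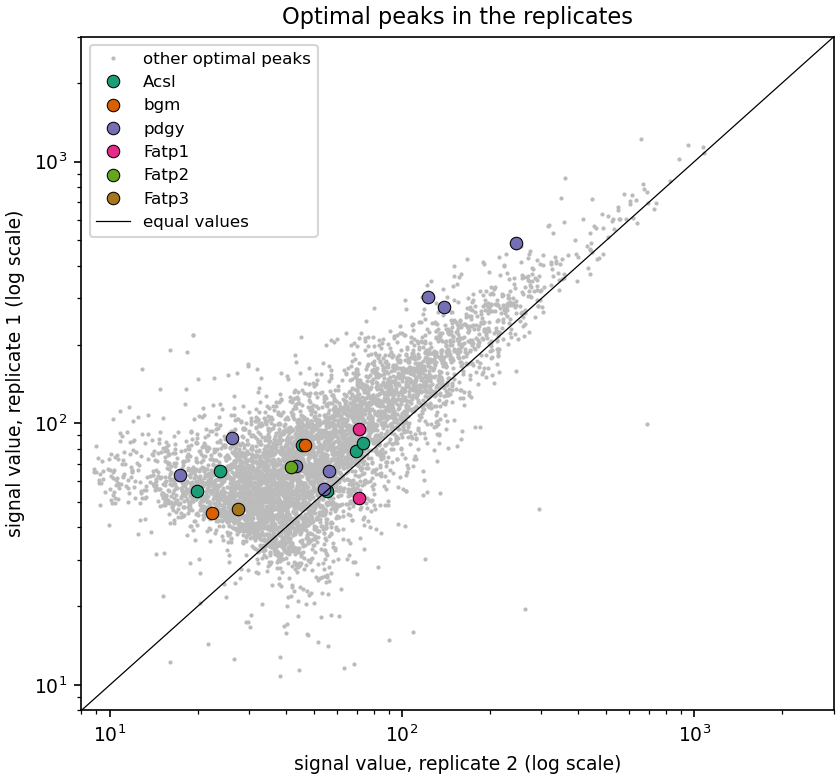
Signal value in replicate 1 against replicate 2 (both log axes) for optimal peaks with a value in each: grey points are the other optimal peaks, coloured points the 20 peaks of the fatty acid genes, and the line marks equal values. Of the 20 points, 18 lie above the line, as most grey points do, and the 3 strongest pdgy peaks lie at the upper right.

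The rule admits only summits in a gene body or within 2 kb, and 69.0% of the combined length of the 7 windows is gene body. Of the 20 summits, 16, or 80.0%, lay in the body. In detail, 11 were in introns, 3 in 5′ UTRs and 2 in coding exons, and the remaining 4 were outside the gene body. The window of a further protein-coding gene (CG9030, ptc, NimC3 or Lrr47) held 7 of the 20 summits. Shares over all optimal peaks are not given here for these features or for shared windows, so neither is read as a trait of these genes. A TSS of any protein-coding gene was within 1000 bp of 13 summits, or 65.0%, against 53.8% for all optimal peaks. The G and C content within 100 bp of the summits had a median of 42.5%, with a range of 31.8% to 55.7%, against a median of 36.8% for all.

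The number of genes with a peak has to be read against gene length. pdgy and Acsl span over 10 kb, where 56.7% of genes had an optimal peak. bgm, Fatp1 and Fatp2 span 5 to 10 kb, where 43.9% had one, and all 3 did. hll and Fatp3 are shorter than 5 kb, where 27.0% had one, and 1 of these 2 did. The 7 genes had a mean of 0.175 optimal peaks per kb of window, against a mean of 0.0678 over all genes. Over only those genes with a peak, the median was 0.175 per kb. A total of 14 of the 20 peaks were at pdgy and Acsl, which have the longest windows of the 7, at 23.9 and 21.2 kb.

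Exact matches to the Hnf4 motifs were at 2 of the 8 pdgy peaks and at no optimal peak of the other listed genes. Only 1.51% of all optimal peaks held a match, so their absence at those genes is not read as a difference from pdgy. DR1 or the exact 9-base Hnf4 site, CAAAGTCCA, was searched on both strands within 100 bp of each summit, and the 2 motifs can overlap. It occurred at 2 of the 20 peaks, against 1.51% of all optimal peaks; 0.519% of the 23100 pooled regions that overlap no optimal peak held it. Both were pdgy peaks with DR1, those of 724 and 414, and the peak of 414 was 1 of 4 optimal peaks with 2 or more copies. In the whole list 41 peaks held DR1, with a median signal value of 233. The strongest pdgy peak was among the 5 highest of these and the other was among the 11 highest.

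Counted by motif, the 7 windows held 6 DR1 matches, and 3 of these were within 100 bp of an optimal summit, all at pdgy, against 4.89% of the 921 matches in all gene windows. A total of 5 were within 100 bp of some pooled summit, against 10.3% of the 921. The other 2 of those 5 were the bgm and hll matches, and the one farther away was in an Acsl intron. The exact site CAAAGTCCA occurred in an Acsl intron, 676 bp from an optimal summit, and downstream of Fatp1, 3137 bp from one. Neither of these 2 was within 100 bp, against 4.15% of the 1445 such sites in all windows.

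Among other motifs, GAGAGAG was within 100 bp of 6 of the 20 summits, against 6.05% of all optimal peaks, and these 6 were at pdgy and Acsl. AGATAAG, the GATA factor motif, was at 2, both at pdgy, against 2.92%. TATCGATA, the DNA replication-related element, and GGTCACAC, the M1BP site, were at none of the 20, against 4.04% and 2.10%. No match says only that those letters were not in the window.

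The genes most like pdgy in the values of their strongest peak were fkh, CG13917 and smash. Likeness was the distance between log2 signal values over the pooled list and both replicates, and it was 0.07 for fkh, which had 712 pooled, 476 in replicate 1 and 255 in replicate 2. fkh encodes a forkhead transcription factor. CG13917 had 706, 467 and 245 in the same order, and smash had 725, 456 and 274. For Acsl the nearest were ttk, a transcriptional repressor gene, with 157, 83.7 and 72.2, then CG14629 and Blos3 at distances of 0.06 and 0.07. fkh had 1 optimal peak and ttk had 3, so likeness in the strongest peak did not extend to the number of peaks.

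A further 3 groups of genes around fatty acid activation were counted the same way. Of 17 further relatives of acyl-CoA synthetases, 4, or 23.5%, had an optimal peak, with a median strongest signal value of 163 over these 4. They were CG3961 at 303, Acsf2 at 190, CG6178 at 136 and AcCoAS, for acetyl-CoA synthetase, at 97.8. Acsx1L and Acsx1R were among the 13 without one. By length, 2 of the 15 relatives of up to 5 kb had a peak, Acsf2 and CG6178, against 27.0% of all genes of that length. AcCoAS spans 9522 bp and CG3961 spans 12234 bp.

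Among fatty acid and acyl-CoA binding proteins and the CD36 family of lipid receptors, 6 of 16, or 37.5%, had an optimal peak, near the 33.0% of all genes. Of those up to 5 kb, 3 of 10 had one, against 27.0% of all genes of that length. fabp, for a fatty acid binding protein, was highest at 479, with 265 in replicate 1 and 226 in replicate 2. Acbp1 followed at 300 and Acbp2 at 166, both for acyl-CoA binding proteins, while Acbp3 and Acbp4 had none. Among enzymes and carriers of steps around acyl-CoA, 12 of 15, or 80.0%, had one, against 33.0% of all genes. Desat1, for a fatty acid desaturase, was highest at 1170, with 719 in replicate 1 and 447 in replicate 2, followed by Lpin at 486 and colt, for the carnitine carrier of mitochondria, at 370. ACC, Agpat4 and FASN1 had none. By length, the share with a peak was 4 of 5 up to 5 kb, 4 of 4 from 5 to 10 kb and 4 of 6 over 10 kb, against 27.0%, 43.9% and 56.7% of all genes. A summit may also lie in the window of a neighbouring gene.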

How the data were processed

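Hnf4 chromatin immunoprecipitation was measured in 2 samples, biological replicates 1 and 2 per the labels. The authors deposited region lists in narrowPeak format, per the deposited file descriptions: 1 relaxed list per replicate (29999 regions in replicate 1 and 30000 in replicate 2), 1 of both replicates pooled (30000), and the optimal list (5817) that the irreproducible discovery rate left of these. A single control served both replicates. The values used are the signal values the authors deposited for each region. The alignment, the calling of regions and the scale of this value were not given in the sources used here. Read depth is unknown, so no interval was computed, and with 1 group there was no contrast to test.

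Summits were column 2 plus column 10. Genes came from Ensembl release 115 and sequence from Release 6; the lists are in dm6 coordinates, and dm6 is that release. Lists on dm3 were not used here. Each optimal peak took the overlapping replicate region (1 bp or more) with the nearest summit. Support by both replicates means overlap with each replicate's 5817 strongest regions. Motifs were exact matches on both strands within 100 bp of summits. The assignment to windows was tested on simulated data. Members, lists and tests were chosen with earlier results of these data known. The genes named are the 7 listed, genes sharing their summits, and those most like pdgy and Acsl. Each further list adds the first 3 by strongest peak and 2 without one. AcCoAS, FASN1, Flo2 and CG30355 were named beyond this after their values were seen. Of 18 relatives listed, 2 were the same gene under an older name, and 5 others were matched through older names. Python 3.11.15, numpy 2.4.6, pandas 2.3.3 and matplotlib 3.10.9 were used.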

Additional observations from a re-analysis of the deposited data

How the results depend on the processing

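Of 24 alternative values for the 4 main counts, 20 stayed within 1.5 times the count reported. With the stronger 50% of optimal peaks, the windows held 11 peaks, in 5 of the 7 genes (23.2% of all genes). Counting only peaks supported by both replicates, 5 of the 7 genes had one, against 27.1% of all genes. Support by both replicates fell to 9 of 20 peaks when the overlap had to cover 50% of both regions. The share of all optimal peaks under that rule is not given here, so the fall cannot be read as particular to these genes. The exact 9-base site alone was at 0 of 20 peaks, against 1.05% of all optimal peaks. With 1 mismatch allowed, a setting added after the data were seen, it was at 4, against 7.84%. Genes with a peak numbered 4 with no flank (13.5% of all genes), 5 with a flank of 1 kb (28.3%) and 7 with a flank of 5 kb (44.3%), where hll gained 2 peaks and bgm had 5. Each replicate alone gave 5 to 6 genes and 15 to 20 peaks, with 35.1% of all genes without replicate 1 and 35.0% without replicate 2. Without replicate 1, Fatp3 had none and bgm and Fatp1 had 1 each, and without replicate 2, bgm had 1 and Fatp3 had 2. By gene, the peak count ranged from 5 to 8 at pdgy, 3 to 6 at Acsl, 0 to 5 at bgm, 0 to 2 at hll, 1 to 4 at Fatp1, 0 to 1 at Fatp2 and 0 to 2 at Fatp3 over 9 alternatives each. No paired analysis was possible because the samples form 1 group. The depth of each replicate is unknown, so a region missing from a list was not detected at an unknown depth.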

Other observations

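Around Fatp1, a flank of 5 kb added 2 optimal peaks that lie closer to other genes. One, at 214, lay 2081 bp downstream of the start of Lrr47, and the other, at 111, lay 52 bp downstream of the start of Myo31DF. On the far side of bgm, a peak of 98.9 lay 2392 bp upstream of its first TSS, with 75.6 in replicate 1 and 23.9 in replicate 2. Together with the peaks between bgm and hll, the stretch from 5 kb before bgm to 5 kb past hll held 5 optimal peaks, and none lay inside the body of either gene.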
